A study of Mus musculus with 14 samples.

Results

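The genes described here are 8 genes of glucocorticoid signalling and of the SGK kinase family, taken by symbol from a count table of 55471 mouse genes. They are the receptors Nr3c1 and Nr3c2, the steroid-activating enzyme Hsd11b1, the receptor-induced genes Fkbp5 and Tsc22d3, and the kinases Sgk1, Sgk2 and Sgk3. Each symbol matched 1 gene, and all 8 passed the filter on low counts, as did 15949 genes in all. RNA was sequenced from brown adipose tissue (BAT) of male mice aged 10 weeks that had been kept for 2 weeks at thermoneutrality, 30 °C. The warm groups were 3 WT and 3 AdC3KO samples, and the cold groups, 4 of each genotype, came from mice then moved to 4 °C for 6 hours. AdC3KO mice lack CLSTN3B in adipocytes. The promoter that drives the deletion, the background strain, the genotype of the WT mice beyond that label and the time of day of collection were not stated in the labels. All groups went through the same warm acclimation, so the 30 °C groups are warm-adapted controls rather than mice at room temperature. Whether every library comes from its own mouse is not stated, and the p-values therefore reflect library-to-library spread, which may be technical.

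Glucocorticoids are adrenal steroids that enter cells and bind the glucocorticoid receptor, encoded by Nr3c1, which is held in the cytoplasm by HSP90 and its partners until steroid binds and then moves to the nucleus to act on genes with glucocorticoid response elements. The mineralocorticoid receptor, encoded by Nr3c2, binds the same hormones with high affinity, and 11β-hydroxysteroid dehydrogenase type 1, encoded by Hsd11b1, regenerates active corticosterone from its inactive keto form inside the cell. Fkbp5 and Tsc22d3 (also called Gilz) are textbook targets of the receptor. Sgk1 is the founding member of the serum- and glucocorticoid-regulated kinases, AGC-family enzymes related to Akt that lie downstream of PI3-kinase, mTORC2 and PDK1, and brown fat is an organ in which cold, noradrenaline and steroid hormones all act on transcription.

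Libraries held 19.93 M to 29.03 M gene counts. Clstn3, the locus that contains CLSTN3B, was at 207 ± 23.2 CPM in WT and 15.8 ± 1.31 in AdC3KO at 30 °C (SD, n = 3 each), and at 1109.6 ± 97.4 and 65.8 ± 11.9 at 4 °C (SD, n = 4 each). CPM are counts-per-million values, here with library sizes scaled by the trimmed mean of M-values (TMM). All 15 brown adipocyte markers, Ucp1 among them, were detected, with a summed level of 11750.2 to 15519 CPM at 30 °C and 28172 to 39509.8 CPM at 4 °C. Single markers divided, with 6 higher and 5 lower in the cold in WT (median log2 −0.13) and 6 and 4 in AdC3KO (median 0.01). For these and the marker counts below, the background is the share of all tested genes. That share was 30.6% higher and 30.8% lower in the cold in WT, and 31.0% and 32.1% in AdC3KO. Skeletal muscle transcripts were raised in 5 libraries: WT 30 °C replicate 3, AdC3KO 30 °C replicates 1 and 2, WT 4 °C replicate 2 and AdC3KO 4 °C replicate 3. Interferon-response transcripts were highest in WT 4 °C replicate 4 and AdC3KO 4 °C replicate 1. Markers of other cells also moved with temperature, not all in 1 direction. In WT, mast cell markers summed to 31.7 to 33.9 CPM at 30 °C and 13.5 to 26.2 CPM at 4 °C. Mural and smooth muscle markers in WT summed to 636 to 708 and 540 to 621 CPM. Those of fibroblasts and progenitors in WT summed to 1029 to 1347 and 1112 to 1417 CPM. The 4 lists that follow had higher sums in the cold, with some overlap. The summed level of 12 macrophage markers ranged over 181 to 209 CPM in WT at 30 °C, 176 to 263 in AdC3KO at 30 °C, 318 to 657 in WT at 4 °C and 259.6 to 443 in AdC3KO at 4 °C, with 8 and 5 of 11 tested markers higher in the cold in WT and AdC3KO. The 12 endothelial markers summed to 870 to 1176 and 896 to 1024 CPM at 30 °C and to 1686 to 1867 and 1760.2 to 2121 CPM at 4 °C in WT and AdC3KO, with 7 higher and 4 lower in WT and 7 higher and 3 lower in AdC3KO. Red blood cell markers summed to 276 to 358 and 245 to 385 CPM at 30 °C and to 327 to 599 and 497 to 623 CPM at 4 °C, with 4 and 5 of 5 tested markers higher in WT and AdC3KO. The 10 white adipocyte markers summed to 255 to 465 and 320.3 to 434 CPM at 30 °C and to 814 to 1357 and 1084 to 1252 CPM at 4 °C, with 1 higher and 1 lower of 6 tested in WT and 1 and 2 in AdC3KO. No marker of the macrophage, endothelial, red blood cell and white adipocyte lists was at 0 in all libraries. The part of any of these other cells in the results was not tested.

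In the cold, 5 of the 8 genes rose in both genotypes (Nr3c1, Fkbp5, Tsc22d3, Sgk1 and Sgk2) and 1 fell in both (Nr3c2). Sgk3 passed the test in AdC3KO, where it fell by 0.32 on the log2 scale (SE 0.13), and not in WT, and the difference between those changes did not pass (interaction adjusted p = 1). Hsd11b1 passed the test in neither genotype. Among all tested genes, edgeR's quasi-likelihood test at an adjusted p of 0.05 called 30.6% higher and 30.8% lower in WT, and 31.0% higher and 32.1% lower in AdC3KO, so most tested genes were called in one direction or the other. The median log2 fold change of the 8 genes was 0.68 in WT and 0.72 in AdC3KO, against −0.03 and −0.06 over all genes. In each genotype the cold and warm libraries did not overlap for 6 of the 8 genes, the 5 that rose and Nr3c2, beside 60.3% and 64.1% of all tested genes in WT and AdC3KO. Without the libraries with skeletal muscle transcripts the same 6 genes passed in WT, and without the libraries highest in interferon genes the same 6 passed in both genotypes. Some of the single changes were large. Of 15949 tested genes, Sgk2 had the 31st highest fold change in WT, Sgk1 the 211th and Fkbp5 the 213th, and Nr3c2 ranked 422 from the lowest end. The ranks in AdC3KO were 81 for Sgk2, 212 for Sgk1, 317 for Fkbp5 and, from the lowest end, 570 for Nr3c2. For a single gene, an exact two-sided permutation test of 3 against 4 libraries cannot go below 0.0571, the value that each of the 6 non-overlapping genes gave in each genotype.

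**Figure D1:**
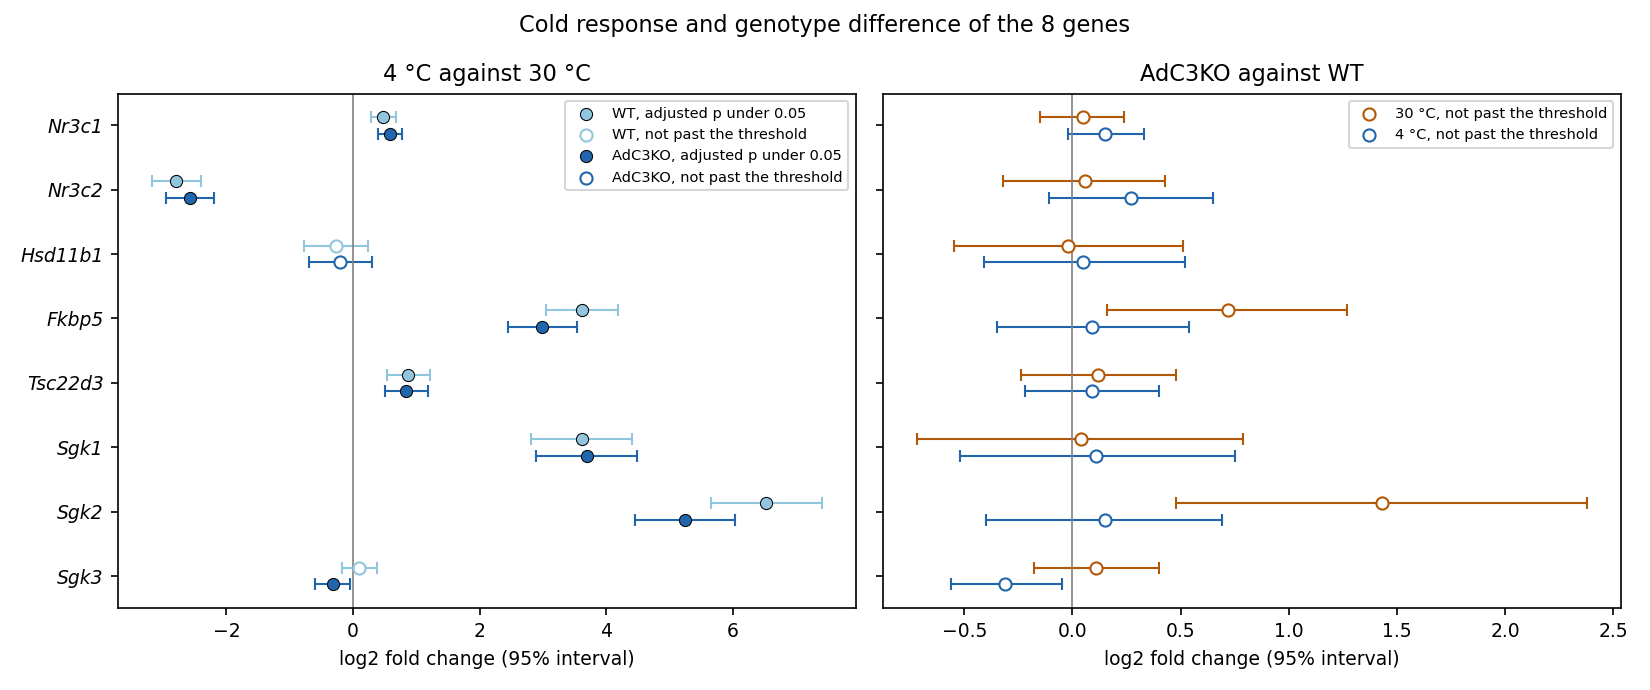
Points are log2 fold changes and bars their 95% intervals for the 8 genes, for 4 °C against 30 °C in each genotype (left) and for AdC3KO against WT at each temperature (right, a narrower scale). Filled points passed an adjusted p of 0.05: Sgk2, Fkbp5 and Sgk1 lie far to the right and Nr3c2 far to the left in both genotypes, and no filled point appears on the right.

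The receptors moved in opposite directions. Nr3c1 (ENSMUSG00000024431, chromosome 18, 39410545 to 39519421, minus strand, GRCm38) was at 100.3, 105.0 and 109.6 CPM in the 3 WT libraries at 30 °C and at 133, 146, 149.6 and 157 CPM in the 4 WT libraries at 4 °C. In AdC3KO it was at 103, 121 and 101 CPM at 30 °C and at 149, 166, 174 and 163 CPM at 4 °C. Every cold library lay above every warm library of its genotype. The rise was small, 1.40-fold in WT (log2 0.48, SE 0.09, edgeR adjusted p = 0.000182) and 1.51-fold in AdC3KO (log2 0.59, SE 0.09, adjusted p = 2.4e-05). With upper-quartile scaling in place of TMM, which lowered the median cold log2 fold change of all genes from −0.03 to −0.27 in WT and from −0.06 to −0.29 in AdC3KO, the rise of Nr3c1 came to 0.24 in WT and 0.36 in AdC3KO, still past the threshold. Under that scaling 3640 genes were higher and 6415 lower in WT, and 3737 and 6542 in AdC3KO, against 4879 and 4908, and 4937 and 5113, under TMM.

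Nr3c2 (ENSMUSG00000031618, chromosome 8, 76899442 to 77245012, plus strand) was at 10.9, 9.74 and 11.5 CPM in WT at 30 °C and at 1.47, 1.41, 1.42 and 1.83 CPM in WT at 4 °C. In AdC3KO it was at 10.1, 11.5 and 11.8 CPM in the warm and at 2.2, 1.33, 1.95 and 1.94 CPM in the cold. The cold libraries formed a low cluster far below the warm ones in both genotypes, and 127 counts over the 4 WT libraries and 176 over the 4 AdC3KO libraries stand behind the low values. Nr3c2 was 6.93-fold lower in the cold in WT (log2 −2.79, SE 0.18, adjusted p = 2.74e-09) and 5.98-fold lower in AdC3KO (log2 −2.58, SE 0.18, adjusted p = 4.59e-09). In whole tissue, fewer cells that express a gene and less of its RNA per cell cannot be told apart. Exons of Nr3c2 share 247 bases with Gm10649 on the opposite strand, and the strand setting of the counting is not given in the sources used here.

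Per kilobase of merged exons, Nr3c1 exceeded Nr3c2 by a mean ratio of 8.27 ± 0.692 in WT and 8.21 ± 0.922 in AdC3KO at 30 °C (SD, n = 3 each), and by 81.0 ± 8.14 and 77.0 ± 20.2 at 4 °C (SD, n = 4 each). The lowest cold ratio was 56.9 and the highest warm ratio 9.06, so the warm and cold libraries were far apart, with an exact permutation p of 0.0571 in each genotype, the smallest that 3 against 4 libraries allow. This ratio was chosen after the levels had been seen. The genotypes overlapped in it, with an exact permutation p of 0.9 at 30 °C and 0.7429 at 4 °C. The estrogen receptor Esr1 also fell, from 52.3 ± 23.0 to 7.32 ± 3.07 CPM in WT (log2 −2.85, SE 0.33, adjusted p = 9.16e-06) and from 57.5 ± 13.3 to 6.54 ± 1.21 CPM in AdC3KO (log2 −3.13, SE 0.33, adjusted p = 3.82e-06). Esr2 and Pgr did not reach the filter.

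**Figure D2:**
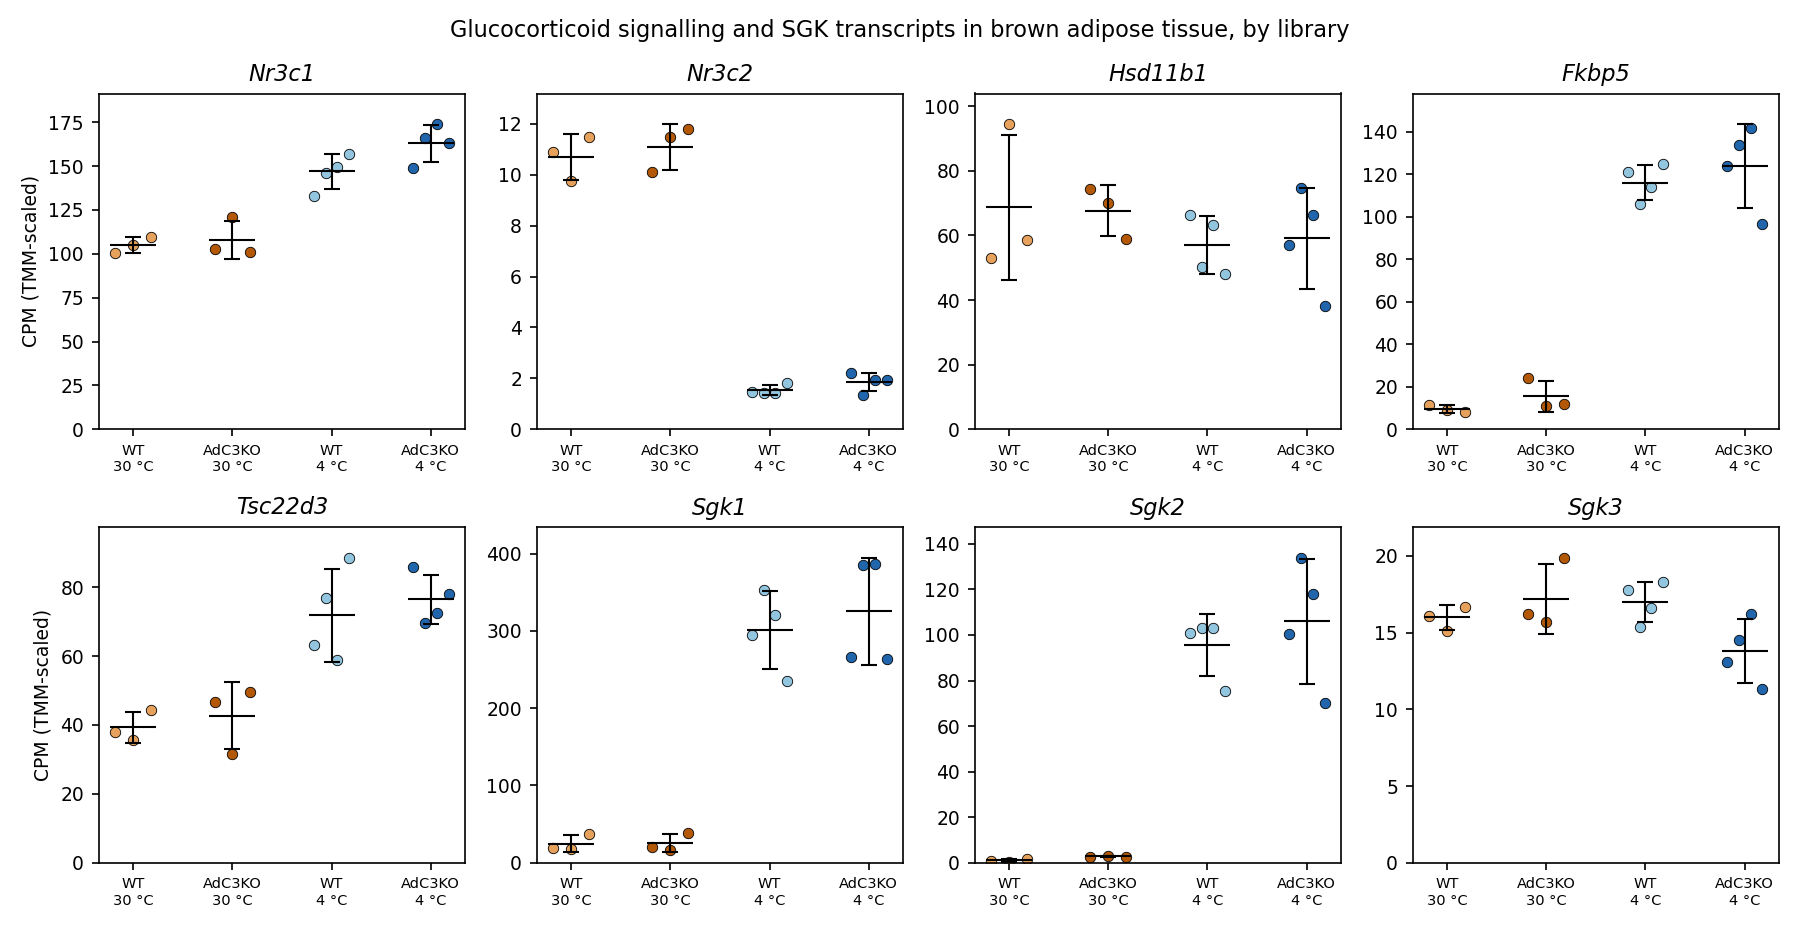
Each panel shows 1 gene, with a point for every library in CPM, a long horizontal mark for the group mean and bars of ± 1 SD over 3 libraries (30 °C) or 4 libraries (4 °C). Nr3c2 drops from about its warm level near 11 CPM to at most 2.2 CPM in all 8 cold libraries, Fkbp5, Sgk1 and Sgk2 rise far above their warm levels, and Hsd11b1 overlaps across all 4 groups.

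Hsd11b1 (ENSMUSG00000016194, chromosome 1, 193221634 to 193264075, minus strand) encodes the enzyme that regenerates corticosterone inside cells, and its change in the cold did not pass the test. It was at 53.0, 94.5 and 58.7 CPM in WT at 30 °C and at 66.2, 50.3, 63.2 and 48.2 CPM at 4 °C. In AdC3KO it was at 74.4, 69.9 and 58.9 CPM in the warm and at 57.2, 74.7, 66.3 and 38.2 CPM in the cold. The groups overlapped throughout, with WT 30 °C replicate 2 the highest library and AdC3KO 4 °C replicate 4 the lowest. The log2 fold change in the cold was −0.27 in WT (95% interval −0.77 to 0.23, edgeR adjusted p = 0.329). For AdC3KO it came to −0.20 (95% interval −0.70 to 0.30, edgeR adjusted p = 0.477). Changes inside those intervals are not excluded by these data. Its opposing enzyme Hsd11b2, which inactivates corticosterone, had 61 counts over the 14 libraries and was not tested.

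Of 18 listed genes of steroid supply, 10 could be tested, and 2 rose and 5 fell in WT while 1 rose and 5 fell in AdC3KO, with medians of −0.70 and −0.63. Over all tested genes, 30.6% rose and 30.8% fell in WT, and 31.0% rose and 32.1% fell in AdC3KO. Under upper-quartile scaling 1 rose and 6 fell of this list in WT, and 0 rose and 6 fell in AdC3KO. H6pd, which makes the NADPH that Hsd11b1 uses in the endoplasmic reticulum, was at 150.3 ± 11.5 CPM in the warm and 186 ± 25.6 CPM in the cold in WT (log2 0.30, SE 0.14, adjusted p = 0.0646), and at 159 ± 35.0 and 152 ± 15 CPM in AdC3KO (log2 −0.07, SE 0.14, adjusted p = 0.67). Slc37a4, the glucose-6-phosphate transporter that feeds H6pd, fell from 24.3 ± 3.19 to 3.23 ± 0.404 CPM in WT (log2 −2.91, SE 0.16, adjusted p = 3.96e-10) and from 22.2 ± 2.01 to 2.89 ± 0.549 CPM in AdC3KO (log2 −2.93, SE 0.15, adjusted p = 3.22e-10). G6pc3, a glucose-6-phosphatase that draws on the same pool, fell by 0.82 on the log2 scale in WT and by 0.77 in AdC3KO. The efflux pumps split: Abcc1 fell by 1.27 and 1.32 on the log2 scale, and Abcb1b rose by 0.82 and 0.54 in WT and AdC3KO. Because the list holds such pumps beside genes that feed H6pd, its counts and medians give no direction of steroid supply. Abcb1a and Abcb1b are close paralogs, so reads may have been divided between them.

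Fkbp5 (ENSMUSG00000024222, chromosome 17, 28399094 to 28517527, minus strand) encodes FKBP51, an HSP90 co-chaperone that lowers the steroid affinity of the glucocorticoid receptor and is induced by it. It was at 11.5, 9.14 and 8.09 CPM in WT at 30 °C and at 121, 106, 114 and 125 CPM at 4 °C. In AdC3KO it was at 24.0, 11 and 11.8 CPM in the warm and at 124, 134, 142 and 96.6 CPM in the cold. All cold libraries were far above all warm ones, and AdC3KO replicate 1 was the highest of the warm libraries. Fkbp5 rose 12.2-fold in WT (log2 3.61, SE 0.26, adjusted p = 6.99e-08) and 7.91-fold in AdC3KO (log2 2.98, SE 0.25, adjusted p = 2.69e-07). Without AdC3KO 30 °C replicate 1 the log2 change in AdC3KO was 3.44.

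Of 18 listed chaperones and co-chaperones of the receptor, 15 rose and 1 fell in both genotypes, with a median log2 fold change of 1.16 in WT and 1.28 in AdC3KO. The shares of all tested genes were 30.6% higher and 30.8% lower in WT, and 31.0% and 32.1% in AdC3KO. Under upper-quartile scaling 13 chaperones rose and 2 fell in WT and 14 rose and 2 fell in AdC3KO. The inducible HSP90 gene Hsp90aa1 went from 147 ± 13 to 1602 ± 299 CPM in WT (log2 3.45, SE 0.17, adjusted p = 1.64e-10). Hspa8, the constitutive HSC70 that loads the receptor onto HSP90, went from 678 ± 78.1 to 4763 ± 742 CPM (log2 2.81, SE 0.14, adjusted p = 2.1e-10). The heat-inducible Hspa1a and Hspa1b rose by 5.06 and 5.05 on the log2 scale, from 0.627 and 1.26 CPM. These neighbours are nearly identical, so the division of reads between them is uncertain. Ptges3, which encodes the p23 co-chaperone, rose by 1.3 and the activator Ahsa1 by 1.67. The member of the list that fell was Fkbp4, the FKBP52 co-chaperone that counteracts FKBP51, from 114 ± 8.03 to 86.7 ± 9.24 CPM in WT (log2 −0.40, SE 0.10, adjusted p = 0.00254) and from 116 ± 5.75 to 95 ± 9.91 CPM in AdC3KO (log2 −0.29, SE 0.10, adjusted p = 0.0194). Ptges3, Ahsa1, H6pd and Fkbp4 were named for their role after their values had been seen, apart from Fkbp4 in its FKBP list.

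Among the 13 other FKBP immunophilins, 1 rose and 4 fell in WT and 3 rose and 3 fell in AdC3KO, with medians of −0.18 and −0.13. Among all tested genes, 30.6% rose and 30.8% fell in WT, and 31.0% rose and 32.1% fell in AdC3KO. Under upper-quartile scaling 1 immunophilin rose and 7 fell in WT, and 1 rose and 6 fell in AdC3KO. Fkbp9 fell by 0.76 on the log2 scale in WT and by 0.97 in AdC3KO, Fkbp3 fell by 0.60 and by 0.83, and Fkbp15 rose by 0.82 and 0.74. Fkbp5 itself, at 3.61 and 2.98, rose further than any of those named.

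Tsc22d3 (ENSMUSG00000031431, chromosome X, 140539528 to 140600659, minus strand), a leucine-zipper protein that mediates anti-inflammatory actions of glucocorticoids, rose far less than Fkbp5. It was at 38.1, 35.6 and 44.2 CPM in WT at 30 °C and at 63.3, 76.9, 58.9 and 88.6 CPM at 4 °C. In AdC3KO it was at 46.7, 31.7 and 49.7 CPM in the warm and at 85.8, 69.6, 72.4 and 78.1 CPM in the cold. Every cold library lay above every warm library. The rise was 1.83-fold in WT (log2 0.87, SE 0.16, adjusted p = 0.000239) and 1.79-fold in AdC3KO (log2 0.84, SE 0.16, adjusted p = 0.000303). Of the 8 listed relatives and partners of the TSC22 family, 4 rose and 1 fell in WT and 4 rose and 3 fell in AdC3KO, against 3 and 3, and 4 and 4, under upper-quartile scaling. With TMM, 30.6% of all tested genes rose and 30.8% fell in WT, and 31.0% rose and 32.1% fell in AdC3KO. Tsc22d2 rose by 0.86 and 0.98 on the log2 scale, and Nrbp2, a pseudokinase partner, fell by 1.5 and by 1.55.

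A list of 50 tested genes known as glucocorticoid-induced in other tissues had 30 higher and 7 lower genes in the cold in WT and 31 higher and 10 lower in AdC3KO, and 28 were higher and 7 lower in both. The medians were 0.89 and 0.82 on the log2 scale, against −0.03 and −0.06 over all genes. Of all tested genes, 30.6% were higher and 30.8% lower in WT, and 31.0% and 32.1% in AdC3KO. Under upper-quartile scaling 27 of the list were higher and 8 lower in WT, and 27 and 11 in AdC3KO. Cdkn1a, a cell-cycle inhibitor, went from 26.8 ± 3.65 to 533 ± 57.7 CPM in WT (log2 4.31, SE 0.28, adjusted p = 1.67e-08) and from 41.5 ± 21.3 to 605 ± 58.6 CPM in AdC3KO (log2 3.87, SE 0.27, adjusted p = 3.42e-08). The insulin receptor substrate Irs2 rose from 27.5 ± 10.5 to 338 ± 30.3 CPM in WT, and the phosphatase Dusp1 from 23.0 ± 4.22 to 241 ± 34.2 CPM, log2 changes of 3.62 and 3.39. Sphk1, which makes sphingosine-1-phosphate, rose by 4.58 in WT and 4.83 in AdC3KO from under 1 CPM. Many genes of this list are known to respond to cyclic AMP as well, so it is not specific to glucocorticoids. The 7 listed genes that fell in both genotypes were Klf13, Rgs2, Gadd45b, Sult1a1, Cited2, Map2k6 and Fbxo32, named, after their values were seen, because they went against the list. Rgs2, a brake on G-protein signalling, fell by 1.47 on the log2 scale in WT and by 1.33 in AdC3KO.

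Of 23 receptor coregulators, 7 rose and 5 fell in WT and 10 rose and 6 fell in AdC3KO. In WT those counts are at or below the share of all tested genes (30.6% higher, 30.8% lower). For AdC3KO the count higher is above the share of all tested genes (31.0%) and the count lower is below it (32.1%). Medians were 0.19 and 0.14, and under upper-quartile scaling 5 rose and 7 fell in each genotype. The coactivator Ncoa1 went from 45.9 ± 4.25 to 219 ± 33.7 CPM in WT (log2 2.25, SE 0.12, adjusted p = 4.42e-10) and rose by 2.21 in AdC3KO. The mediator subunit Med1 rose by 1.41 and 1.37 and the corepressor Nrip1 by 1.71 and 1.37, while the chromatin protein Cbx3 fell by 1.1 and by 1.36. The paralogs of Ncoa1 were named for comparison after their values were seen: Ncoa3 fell by 0.53 in WT (adjusted p = 0.000489) and by 0.46 in AdC3KO (adjusted p = 0.00143). Ncoa2 had a log2 change of −0.21 in WT (adjusted p = 0.0812) and fell by 0.47 in AdC3KO (adjusted p = 0.000676).

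**Figure D3:**
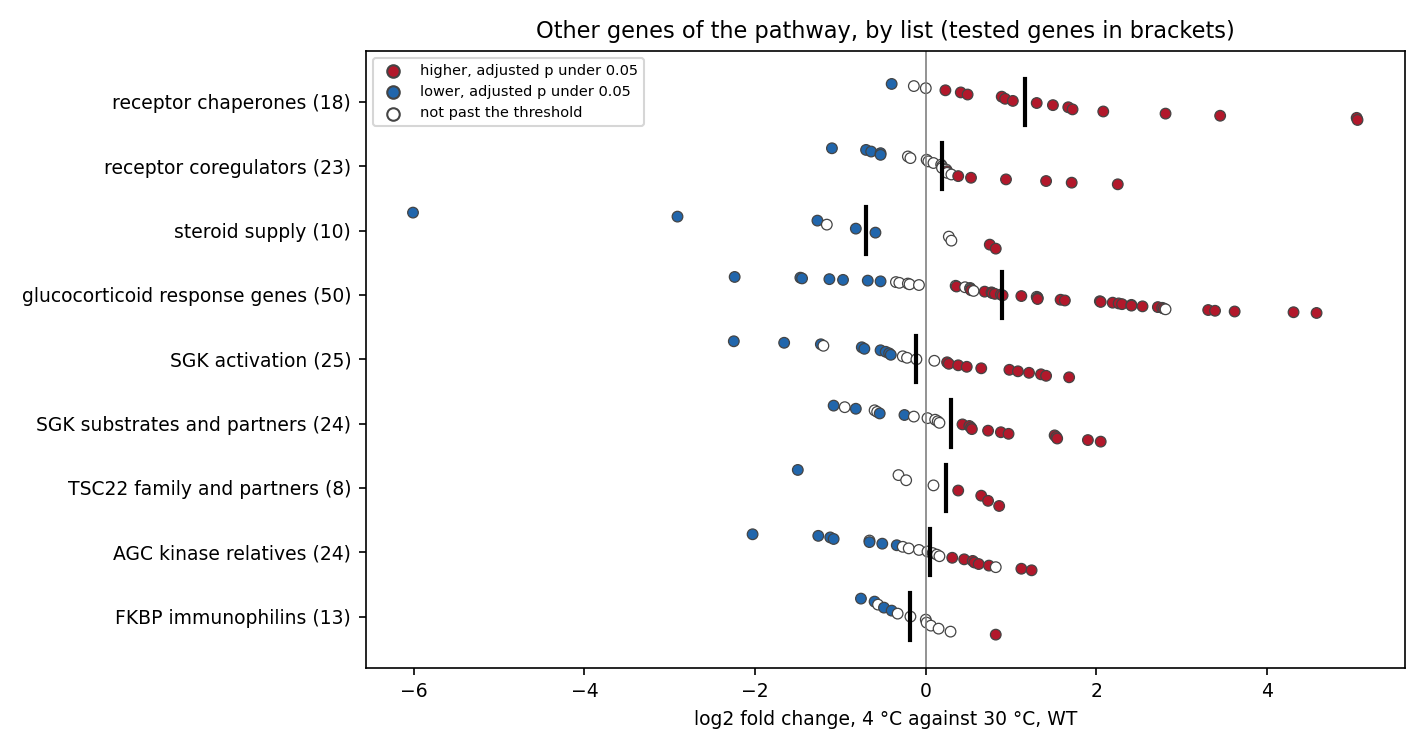
Each point is 1 tested gene of a list, placed by its log2 fold change in the cold in WT, red where higher and blue where lower at an adjusted p of 0.05 and white where not past it; the black bar is the list's median. The chaperones (median 1.16) and the glucocorticoid response genes (0.89) lie mostly to the right. The median of steroid supply (−0.70), a list that also holds efflux pumps, lies to the left.

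Sgk1 (ENSMUSG00000019970, chromosome 10, 21882184 to 21999903, plus strand) has several start sites, and RefSeq (GRCm38.p6) gives 6 promoter windows for it, each 300 bases long and reaching from upstream of a start to shortly after it. Windows were searched on both strands for the glucocorticoid response element, meaning the unit AGAACA, 3 bases of any kind and the reverse complement of the unit. They were also searched for the unit alone, which is part of every exact element, for the cyclic AMP response element TGACGTCA and for its shortened form TGACG, which every full element holds. An exact glucocorticoid element was in 3 of 32851 windows (0.00913%), and 1 of these is an Sgk1 window. The other 2 belong to Acnat2 and Gm35041, which were not tested for lack of counts. The element lies at 21993701 to 21993715 on chromosome 10, 189 bases before the start at 21993890, which is also the annotated start of an Sgk1 transcript in GENCODE. At most 1 mismatch was met in 54 windows (0.164%) and at most 2 in 606 (1.84%), while the single unit was in 19.0%, TGACGTCA in 1.79% and TGACG in 20.8%. The Sgk1 window is printed because it holds the exact element. The Fkbp5 window is printed because Fkbp5 also rose, 12.2-fold in WT and 7.91-fold in AdC3KO, with none of these motifs in it. Of the 3 Tsc22d3 windows, 1 is printed because it holds only a single unit. Capitals mark the matches.
Sgk1, chr10:21993640-21993939, plus strand: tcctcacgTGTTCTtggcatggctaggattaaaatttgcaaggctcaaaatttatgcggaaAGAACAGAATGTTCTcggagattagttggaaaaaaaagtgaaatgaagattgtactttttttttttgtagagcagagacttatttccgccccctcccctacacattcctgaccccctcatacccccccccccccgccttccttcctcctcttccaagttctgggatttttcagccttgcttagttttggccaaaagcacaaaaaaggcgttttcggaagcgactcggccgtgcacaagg
Fkbp5, chr17:28486100-28486399, minus strand: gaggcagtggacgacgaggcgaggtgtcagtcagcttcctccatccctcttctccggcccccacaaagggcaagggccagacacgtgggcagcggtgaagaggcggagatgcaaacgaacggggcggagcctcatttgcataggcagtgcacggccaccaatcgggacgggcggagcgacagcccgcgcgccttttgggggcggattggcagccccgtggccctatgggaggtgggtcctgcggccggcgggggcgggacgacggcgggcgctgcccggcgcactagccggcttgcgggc
Tsc22d3, chrX:140600473-140600772, minus strand: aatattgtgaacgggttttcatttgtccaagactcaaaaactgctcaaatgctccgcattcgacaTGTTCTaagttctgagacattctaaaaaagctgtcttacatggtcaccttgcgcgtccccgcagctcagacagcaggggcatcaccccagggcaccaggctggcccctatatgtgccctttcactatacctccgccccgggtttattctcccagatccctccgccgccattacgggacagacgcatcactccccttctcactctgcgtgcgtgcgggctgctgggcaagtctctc
In the Sgk1 window the run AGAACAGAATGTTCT is the element, and a further unit on the opposite strand, TGTTCT, lies 242 bases before the start. Of the other windows of Sgk1, 1 held an element with 2 mismatches, 2 held a single unit, 1 held TGACG and 1 held none of them. Hsd11b1 and Nr3c2 had 1 window each, with none of the motifs in either. Tsc22d3 had 3 windows: beside the printed 1, another held TGACG, 224 bases before its start, and another held none of the motifs. Nr3c1, Sgk2 and Sgk3 were not matched. A match describes letters only, and enhancers outside these windows were not searched. Of 13 tested genes with an element of at most 1 mismatch, 6 rose and 4 fell in WT and 7 rose and 4 fell in AdC3KO. Their median log2 changes were 0.55 and 0.59, with Sgk1, which holds the exact element, among the 13. The wider set with at most 2 mismatches had 151 tested genes. There 57 rose and 40 fell in WT and 57 rose and 44 fell in AdC3KO, with medians of 0.08 and 0.01. Over all tested genes, 30.6% rose and 30.8% fell in WT, and 31.0% rose and 32.1% fell in AdC3KO.

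Sgk1 was at 18.5, 18.3 and 36.9 CPM in WT at 30 °C and at 294, 353, 321 and 235 CPM at 4 °C. In AdC3KO it was at 20, 17.0 and 38.9 CPM in the warm and at 266, 385, 386 and 264 CPM in the cold. Replicate 3 was the high warm library in each genotype, and it still lay far below the lowest cold library. Sgk1 rose 12.2-fold in WT (log2 3.61, SE 0.36, adjusted p = 3.27e-06) and 12.9-fold in AdC3KO (log2 3.69, SE 0.37, adjusted p = 2.62e-06). Of the 2 high warm libraries, WT replicate 3 carried skeletal muscle transcripts and AdC3KO replicate 3 did not. Without the libraries with skeletal muscle transcripts, the log2 change in WT was 3.94 (SE 0.22).

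Sgk2 (ENSMUSG00000017868, chromosome 2, 162987330 to 163014127, plus strand), a kinase best known from liver and kidney, was low in the warm. It was at 0.828, 0.319 and 1.86 CPM in WT at 30 °C, 81 counts over the 3 libraries, and at 101, 103, 103 and 75.5 CPM at 4 °C. In AdC3KO it was at 2.68, 3.12 and 2.55 CPM in the warm and at 100.5, 134, 118 and 70.1 CPM in the cold. No warm library came near a cold one. The rise was 92.3-fold in WT (log2 6.53, 95% interval 5.65 to 7.41, adjusted p = 2.96e-08) and 37.9-fold in AdC3KO (log2 5.25, 95% interval 4.46 to 6.03, adjusted p = 6.99e-08). The WT value rests on few warm counts, and without WT 30 °C replicate 3, the highest of the 3, the log2 change was 7.38.

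Sgk3 (ENSMUSG00000025915, chromosome 1, 9798107 to 9900845, plus strand), the isoform that binds endosomal phosphoinositides, stayed within a narrow range. It was at 16.1, 15.1 and 16.7 CPM in WT at 30 °C and at 17.8, 15.4, 16.6 and 18.3 CPM at 4 °C. In AdC3KO it was at 16.2, 15.7 and 19.9 CPM in the warm and at 13.1, 14.5, 16.2 and 11.3 CPM in the cold. The warm and cold ranges overlapped in both genotypes. In WT the log2 change was 0.09 (95% interval −0.18 to 0.37, adjusted p = 0.556). The fall in AdC3KO was 1.25-fold (log2 −0.32, SE 0.13, adjusted p = 0.0376), and it missed the threshold under 7 of 23 alternatives. Without AdC3KO 30 °C replicate 3, the highest of those libraries, it was −0.21 (adjusted p = 0.212), without AdC3KO 4 °C replicate 4 −0.22 (adjusted p = 0.129) and without AdC3KO 4 °C replicate 1 −0.28 (adjusted p = 0.0944). Over all 23 alternatives the adjusted p ranged from 0.00122 to 0.212.

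On a length-scaled basis Sgk2 and Sgk3 changed places. The summed level of Sgk1, Sgk2 and Sgk3 was 6.42 ± 2.45 CPM per kilobase of merged exons in WT and 7.17 ± 2.52 in AdC3KO at 30 °C (SD, n = 3 each), and 90.6 ± 13.8 and 98.3 ± 21.7 at 4 °C (SD, n = 4 each). Sgk2 made up 4.18% ± 2.05 of that sum in WT and 12.4% ± 4.70 in AdC3KO in the warm, and 31.0% ± 1.35 and 31.4% ± 3.27 in the cold. The share of Sgk3 went the other way, from 18.7% ± 5.27 and 17.6% ± 3.31 to 1.35% ± 0.327 and 0.993% ± 0.102. Its own level moved little, from 1.12 to 1.19 CPM per kilobase in WT and from 1.20 to 0.963 in AdC3KO. The fall of its share thus follows from the rise of the sum, and the shares are not independent of each other. Warm and cold libraries did not overlap in either share. By this length Sgk1 was the largest part in all 14 libraries, with a share of 77.1% ± 4.09 and 70.0% ± 7.97 in the warm and 67.6% ± 1.51 and 67.6% ± 3.26 in the cold. With the longest transcript in place of merged exons, which for Sgk3 is 3779 in place of 14311 bases, the share of Sgk1 changed direction, from 62.1% to 72.8% in WT and from 58.1% to 73.3% in AdC3KO, so no direction holds for it. The exact two-sided permutation p was 0.0571 for the cold change of the sum and of the Sgk2 and Sgk3 shares in each genotype, the smallest this design allows, and 0.1305 after Benjamini-Hochberg adjustment over the 16 tests of this family.

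**Figure D4:**
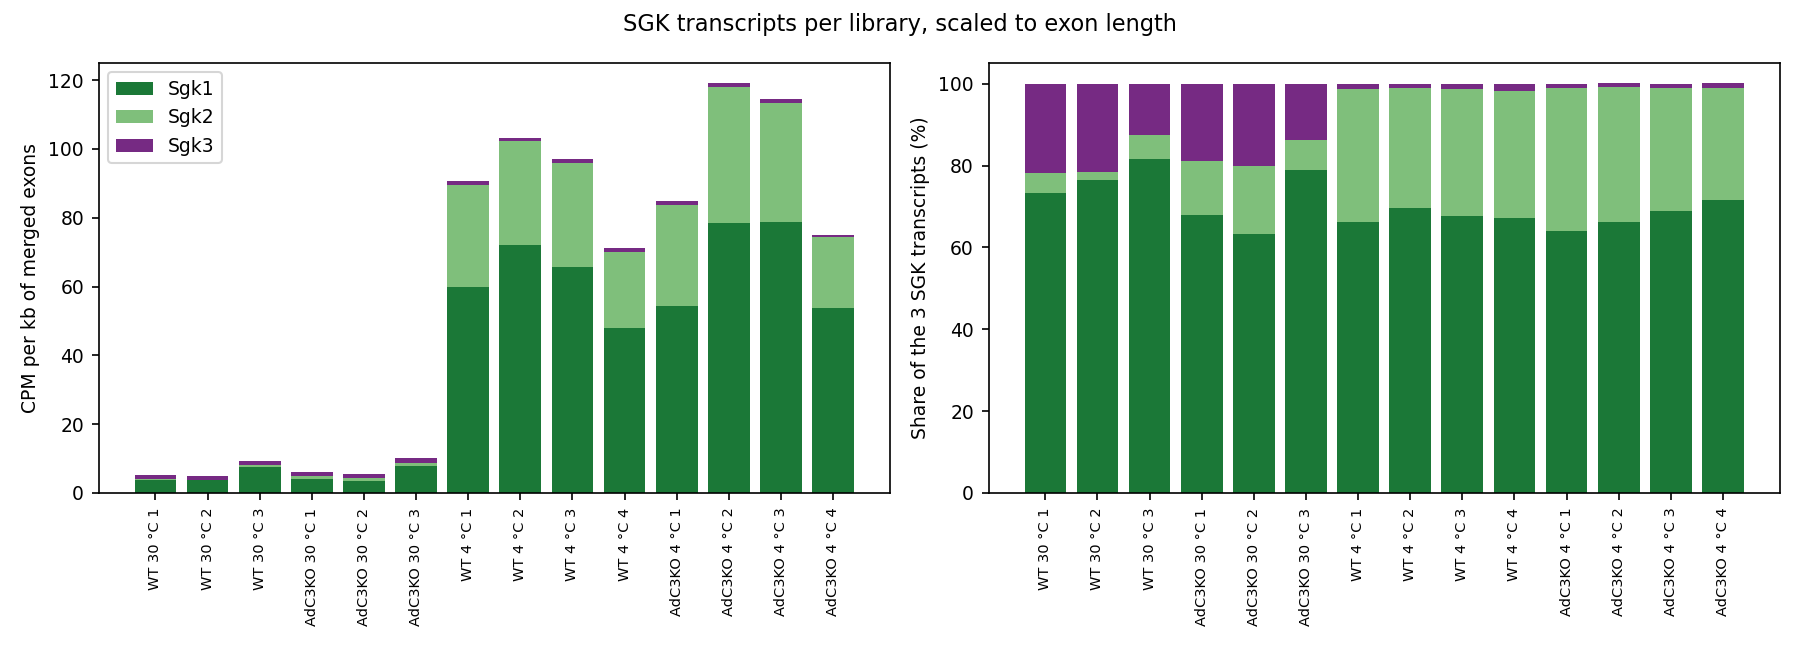
Bars show Sgk1, Sgk2 and Sgk3 in each of the 14 libraries, on the left as CPM per kilobase of merged exons and on the right as a percent of their sum, both from 0. The warm bars reach at most 10.1 CPM per kilobase and the cold bars at least 71.4, with the Sgk2 band wide and the Sgk3 band thin in every cold library.

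The enzymes that switch SGK kinases on were mixed. Of 25 listed genes of SGK activation, 11 rose and 9 fell in WT and 9 rose and 9 fell in AdC3KO, against 7 and 12, and 7 and 10, under upper-quartile scaling. Under TMM, 30.6% of all tested genes rose and 30.8% fell in WT, and 31.0% rose and 32.1% fell in AdC3KO. Pdpk1, which encodes PDK1 and phosphorylates the activation loop of all 3 kinases, rose from 49.7 ± 2.36 to 159 ± 17.6 CPM in WT (log2 1.68, SE 0.11, adjusted p = 4.6e-09) and by 1.54 in AdC3KO. Mtor, the kinase of mTORC2 for the hydrophobic motif, rose by 1.41 and 1.35. Pik3r1, the PI3-kinase regulatory subunit, fell from 158 ± 66.8 to 33.4 ± 7.18 CPM in WT (log2 −2.25, SE 0.28, adjusted p = 1.48e-05), and Inpp4b, a phosphoinositide phosphatase, fell by 1.66 in WT and by 2.05 in AdC3KO. Of 24 tested substrates and partners, 12 rose and 4 fell in WT and 11 rose and 8 fell in AdC3KO, beside the same shares of all tested genes. Under upper-quartile scaling 11 rose and 6 fell in WT. Nedd4l, the ubiquitin ligase that Sgk1 inhibits in salt-transporting epithelia, rose from 45.3 ± 5.30 to 169.6 ± 26.1 CPM in WT (log2 1.90, SE 0.18, adjusted p = 4.37e-07). Foxo1, a transcription factor that SGK and Akt keep out of the nucleus, rose by 2.05 and 1.81, the sodium pump subunit Atp1b1 by 1.54 and 1.64 and the mTORC1 activator Rheb by 1.53 and 1.5. Foxo1 and Foxo3 are also in the glucocorticoid response list, and Wnk1 is in the lists of SGK activation and of TSC22 partners.

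Of 24 other AGC kinases, 8 were higher and 7 lower in WT and 8 and 8 in AdC3KO, close to the shares of all tested genes (30.6% and 30.8% in WT, 31.0% and 32.1% in AdC3KO). Under upper-quartile scaling the counts were 5 and 9 in WT, and 5 and 12 in AdC3KO. Prkaca, the catalytic subunit of protein kinase A, fell from 292 ± 17.3 to 134 ± 20.2 CPM in WT (log2 −1.12, SE 0.11, adjusted p = 1.55e-07) and by 1.24 in AdC3KO. Rps6ka2 fell by 1.26 and by 1.29, while Pkn2 rose by 1.24 and 1.21 and Prkci by 1.12 and 0.82. Sgk1 and Sgk2 rose further than these relatives: the highest called in both genotypes was Pkn2.

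The order of the 8 genes by level differed between temperatures. In WT at 30 °C, per kilobase of merged exons, Hsd11b1 (16.2 ± 5.29 CPM) and Nr3c1 (13.7 ± 0.608) led with overlapping libraries. Tsc22d3 (9.05 ± 1.01), Sgk1 (5.01 ± 2.18) and Nr3c2 (1.66 ± 0.141) followed without overlap. Next came Sgk3 (1.12 ± 0.0575) and Fkbp5 (1.01 ± 0.183), whose libraries overlapped, and Sgk2 (0.294 ± 0.231) was last. In WT at 4 °C, Sgk1 (61.4 ± 10.2) and then Sgk2 (28 ± 3.95) led without overlap between them or with the next gene. Nr3c1 (19.1 ± 1.28), Tsc22d3 (16.6 ± 3.11), Hsd11b1 (13.4 ± 2.14) and Fkbp5 (12.3 ± 0.876) followed, each overlapping its neighbour, and Sgk3 (1.19 ± 0.0929) and Nr3c2 (0.237 ± 0.0309) came last. Among all genes with a length, Sgk2 moved from percentile 15.6 to percentile 90.9 and Nr3c2 from 41.9 to 16.4 in WT. AdC3KO libraries gave the same order in the cold, with Sgk2 (31.0 ± 8.06) overlapping Nr3c1 (21.2 ± 1.37). With the longest transcript as the length, Sgk1 and Sgk2 still led in the cold, but Fkbp5 stood 3rd and Nr3c1 6th in both genotypes. By that length Sgk3 stood 5th, Fkbp5 6th and Nr3c2 7th at 30 °C in both genotypes.

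Genotype was compared at each temperature to ask whether loss of CLSTN3B in adipocytes altered these genes. These comparisons use the same libraries as the cold comparisons and are not independent of them. None of the 8 passed the test at 30 °C, at 4 °C or in the genotype by temperature interaction. Over all genes, edgeR called 0.0439% (7 genes) at 30 °C, 0.0502% (8 genes) at 4 °C and 0.0% in the interaction, where 349 genes had an unadjusted p under 0.05 and DESeq2 also called 0. At an unadjusted p under 0.05 the members were Fkbp5 and Sgk2 at 30 °C, Sgk3 at 4 °C, and Sgk2 and Sgk3 in the interaction, out of 40 member tests. DESeq2 called none of the 8 in these 3 comparisons.

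Sgk2 gave the widest genotype difference. At 30 °C the 3 AdC3KO libraries, at 2.55 to 3.12 CPM, all lay above the 3 WT libraries, at 0.319 to 1.86 CPM, and it was the 1 member of 8 without overlap, beside 7.29% of all tested genes. The difference was 2.69-fold (log2 1.43, 95% interval 0.48 to 2.38, unadjusted p = 0.00658, adjusted p = 1), and the exact permutation p was 0.1, the smallest for 3 against 3. Leaving out single libraries moved the log2 difference between 1.02 and 2.28, the latter without WT 30 °C replicate 3. At 4 °C the difference was 0.15 (95% interval −0.40 to 0.69), and the interaction was −1.28 (SE 0.51, unadjusted p = 0.0258, adjusted p = 1).

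For Fkbp5 the log2 difference at 30 °C was 0.72 (95% interval 0.16 to 1.27, unadjusted p = 0.0157, adjusted p = 1), and it was 0.26 without AdC3KO 30 °C replicate 1, at 24.0 CPM the highest warm library. In that library Cdkn1a was at 66.1 CPM, against 28.3 and 30.1 CPM in the other AdC3KO libraries and 23.5 to 30.7 CPM in WT. Zbtb16, a receptor-induced zinc-finger gene named after its values were seen, was at 155 CPM there, against 53.9 and 55.4 CPM in the other AdC3KO libraries and 27.3 to 74.9 CPM in WT. Of the 6 warm libraries, this 1 was the highest for Fkbp5, Cdkn1a and Zbtb16, which were picked for that, but not for Tsc22d3 (46.7 CPM, against 49.7 in AdC3KO replicate 3) or Sgk1 (20 CPM, against 38.9 and 36.9 in the replicate 3 libraries). It also carried skeletal muscle transcripts, whose part in these values was not tested. At 4 °C no member was free of overlap between genotypes, beside 2.27% of all tested genes. Sgk3 was lower in AdC3KO at 4 °C by a log2 difference of −0.31 (95% interval −0.56 to −0.05, unadjusted p = 0.0216, adjusted p = 0.963), with an interaction of −0.42 (SE 0.18, unadjusted p = 0.0368, adjusted p = 1). For the other genes the 95% intervals at 4 °C were −0.02 to 0.33 for Nr3c1, −0.11 to 0.65 for Nr3c2, −0.41 to 0.52 for Hsd11b1, −0.35 to 0.54 for Fkbp5, −0.22 to 0.40 for Tsc22d3 and −0.52 to 0.75 for Sgk1. Differences inside these intervals are not excluded by these data. In the lists of related genes described above, no gene was called in either genotype comparison or in the interaction.

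The genes whose pattern over the 14 libraries lay closest to each member were found among 13411 genes by the root-mean-square difference of log2 CPM after centring. For Sgk2 these were Plk3 (0.519), Gprc5a (0.570) and St3gal5 (0.635), which rose by 6.02, 5.81 and 5.56 on the log2 scale in WT. For Sgk1 they were Lipg (0.294), Got1 (0.315) and Slc25a25 (0.321), and for Fkbp5 Sdc4 (0.242), Trim66 (0.282) and Mbnl3 (0.296). Plppr2 (0.183), Slc22a3 (0.205), an organic cation transporter that corticosterone inhibits, and Wdr62 (0.206) were nearest to Nr3c2. Puf60 (0.079), Ppp6r1 (0.089) and Ccdc91 (0.090) were nearest to Nr3c1, and Prdm4 (0.124), Rc3h2 (0.150) and Resf1 (0.156) to Tsc22d3. Sgk3 had Zfp1 (0.110), Mcoln1 (0.137), a lysosomal channel, and Ctsa (0.141), a lysosomal protease. For scale, the same measure of a member's distance from its own mean was 3.035 for Sgk2, 1.876 for Sgk1, 1.686 for Fkbp5, 1.325 for Nr3c2, 0.473 for Tsc22d3, 0.285 for Nr3c1 and 0.194 for Sgk3. All these patterns share the same libraries, depths and temperature contrast.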

How the data were processed

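Brown adipose RNA was sequenced in 14 libraries. Reads were trimmed with Trimmomatic, checked with FastQC, aligned to GRCm38/mm10 with STAR and counted per gene with HTSeq, and differential expression was run with DESeq2, per the submitters' processing notes and the series' design text. For the strand setting, the annotation release and tool versions, nothing was given in the sources used here. What the authors deposited is a table of raw counts per gene, 1 column for each library; 5 HTSeq summary lines were removed, of which reads with no feature or an ambiguous one made up 11.73 to 13.771% of all counted, and 3 lines were 0. GENCODE vM21 gave symbols for 55230 of 55471 identifiers (99.57%) and exon lengths.

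Genes were filtered with edgeR's filterByExpr (minimum count 10), scaled by TMM and tested in R 4.3.3 with edgeR 4.0.16's quasi-likelihood test on 4 group means in 1 fit (common biological coefficient of variation 0.2), with Benjamini-Hochberg adjustment at 0.05 over all 15949 tested genes. TMM factors were 1.107 to 1.213 at 30 °C and 0.8224 to 0.9537 at 4 °C. The edgeR steps were also run on simulated data, for the cold comparison in WT only. No pair of libraries agreed within sampling noise, so each was counted once. Replicate numbers did not pair the libraries. Alternatives were DESeq2 1.42.0, other scalings, no filter, only the groups compared, a replicate block, leaving out each library, and leaving out libraries with muscle or interferon transcripts.

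The 8 genes, the lists and the tests were chosen with earlier results of these data known. Named were the 8 genes, Clstn3, up to 4 genes of each list called in both genotypes with the largest change in WT (mean of the higher group at least 1 CPM), and for each member called in the cold the 3 genes nearest in pattern. Lists were read by symbol, and Gilz and Chip, older names, matched no row. Promoter sequences are RefSeq's for GRCm38.p6. 1 listed gene is not reported here.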

Additional observations from a re-analysis of the deposited data

Results flagged for a closer look

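In 2 of 22 groups of 4 libraries examined, 1 library lay far from the other 3, by a gap that exceeds the 95% limit for a group of 4; chance gives this in about 1 of 20 groups. In WT at 4 °C, Nr3c2 was highest in replicate 4, at 1.83 CPM, and the gap took up 0.861 of the group's range. In the same group Sgk2 was lowest in replicate 4, at 75.5 CPM, with a gap of 0.898 of the range. That library had the highest level of interferon-response transcripts of the 14, and the part of this in either value was not tested. Without the libraries highest in interferon genes, the log2 change in the cold in WT was −2.88 for Nr3c2 and 6.64 for Sgk2.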

How the results depend on the processing

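Of 928 alternative values of a member's fold change, 890 kept their direction and their side of the threshold, 31 changed sign without passing the threshold in either setting, and 7, all of Sgk3 in the cold in AdC3KO, kept the direction and missed the threshold. The last were −0.34 with only the groups compared, −0.28 without the libraries highest in interferon genes, −0.21, −0.28 and −0.22 without AdC3KO 30 °C replicate 3, AdC3KO 4 °C replicate 1 and AdC3KO 4 °C replicate 4, and the 2 fits with a block. With the replicate number as a block the log2 change of Sgk3 was −0.30 (number in the title) or −0.29 (number in the description), and the block changed no other member's call. Libraries with the same number did not deviate together: the correlation of their deviations had a median of −0.048 over 19 pairs by title and 0.029 over 14 pairs by description. When single libraries were left out, the cold log2 change of Hsd11b1 in WT ranged from −0.43 to 0.03. The genotype difference at 30 °C ranged from −0.04 to 0.10 for Nr3c1, −0.01 to 0.12 for Nr3c2, −0.18 to 0.28 for Hsd11b1 and −0.41 to 0.46 for Sgk1, and that of Hsd11b1 at 4 °C from −0.07 to 0.22. The interaction ranged from −0.23 to 0.25 for Hsd11b1, −0.21 to 0.10 for Tsc22d3 and −0.34 to 0.53 for Sgk1. The cold change of Sgk3 in WT was −0.15 with upper-quartile scaling. At 4 °C the genotype difference of Hsd11b1 was −0.08 with the block on the description number, −0.06 without the libraries with skeletal muscle transcripts and −0.01 without those highest in interferon genes, and that of Fkbp5 was −0.02 without the muscle libraries. The interaction of Tsc22d3 was 0.14 with that block and 0.04 without the interferon libraries. The count of all genes called for genotype at 30 °C, 7, was 3 with the block on the description number, 10 with only the groups compared (5 higher and 5 lower, against 6 and 1) and 8 by DESeq2, and ranged from 4 to 7 when single libraries were left out. The count at 4 °C, 8, was 22 by DESeq2, 5 with only the groups compared and 3 without the libraries with skeletal muscle transcripts. With the longest transcript as the length, the share of Sgk1 was 62.1% in WT and 58.1% in AdC3KO at 30 °C and 72.8% and 73.3% at 4 °C. The share of Sgk2 was then 2.42% in WT and 7.26% in AdC3KO at 30 °C and 23.7% and 24.2% in WT and AdC3KO at 4 °C. The share of Sgk3 was 35.5% and 34.7% at 30 °C and 3.48% and 2.57% at 4 °C. The sum of the 3 kinases was 12.5 and 13.6 CPM per kilobase at 30 °C and 133 and 144 at 4 °C, in WT and AdC3KO. Alternatives for the lists and the receptor ratio were chosen after seeing the data: the ratio in WT at 30 °C became 9.03 with the longest transcript, and upper-quartile scaling called 8 rather than 5 FKBP genes in the cold in WT. Leaving out the libraries with muscle transcripts could not be run for AdC3KO in the cold, for genotype at 30 °C or for the interaction, since it leaves 1 AdC3KO library at 30 °C. Depth limits Sgk2 at 30 °C most, with 81 counts in WT.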
